A study of Mus musculus with 7 samples.

Results

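Lockd, the p27 gene Cdkn1b and 7 genes whose products act on p27 protein (Skp2, Cks1b, Cul1, Rbx1, Uhmk1, Cops5 and Rnf123) were followed in erythroid cells with and without Lockd. The members were taken by gene symbol from probesets that the platform annotation pairs with exactly 1 symbol. For a gene with several probesets, the one with the highest mean over all arrays was used. Of the 9 named genes, 8 were measured in this way, out of 22180 genes in all. The only probeset listed for Rbx1 also carries the symbol of its pseudogene Rbx1-ps, so Rbx1 has no value here.

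The cells were G1E, a mouse erythroid line derived from embryonic stem cells that lack functional GATA1 and arrested as immature precursors. Clones with intact Lockd, labelled Lockd WT or Lockd control, gave 3 arrays, and clones with Lockd deleted by CRISPR/Cas9, labelled Lockd deletion or knockout, gave 4. All cells, controls included, therefore share the G1E background and its medium, and the labels name no other allele or agent. The bounds of the deletion, the guides used and which arrays share a clone are not stated in the labels, and a deletion removes DNA together with its transcript. Values are log2 RMA values of the Affymetrix Mouse Gene 2.0 ST array, so a difference of 1 is a change of 2-fold, and levels of different probesets are not comparable.

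p27, encoded by Cdkn1b, binds cyclin and CDK complexes and holds cells in G1. Its amount is set largely after transcription. In the nucleus, p27 phosphorylated by CDK2 is recognised by Skp2 with its cofactor Cks1b, and the SCF ligase built on the cullin Cul1 and the RING protein Rbx1 marks it for the proteasome. In the cytoplasm, Rnf123 (KPC1) is the catalytic subunit of another p27 ubiquitin ligase. The kinase Uhmk1 (KIS) phosphorylates p27 and promotes its export from the nucleus. Cops5 (JAB1), a subunit of the COP9 signalosome, binds p27 and promotes its export and breakdown. In erythroid precursors, p27 is known for its part in the cell cycle exit that accompanies maturation. Lockd, which encodes a long non-coding RNA, lies downstream of Cdkn1b on the same strand.

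In the gene table of GRCm38.p6, Cdkn1b spans chr6:134920401-134925525 and Lockd chr6:134929092-134951718, so that 3566 bases separate them and their starts lie 8691 bases apart. Of the other members, Cul1 is also on chromosome 6, from 47453732 to 47526144. The windows around the starts of Cdkn1b and Lockd, from 250 bases before to 50 after, are shown from RefSeq on GRCm38.p6. Both genes read lower on the deletion arrays, but Lockd is the deleted gene, and shared control of the 2 was not tested. The labels do not state whether the Lockd window remains in the deletion clones. Both genes are on the plus strand, with the Cdkn1b window at chr6:134920151-134920450 and the Lockd window at chr6:134928842-134929141. Capitals mark matches to CCAAT, the core of the NF-Y motif, and to GGGCGG, the core of the Sp1 motif, on either strand.
Cdkn1b: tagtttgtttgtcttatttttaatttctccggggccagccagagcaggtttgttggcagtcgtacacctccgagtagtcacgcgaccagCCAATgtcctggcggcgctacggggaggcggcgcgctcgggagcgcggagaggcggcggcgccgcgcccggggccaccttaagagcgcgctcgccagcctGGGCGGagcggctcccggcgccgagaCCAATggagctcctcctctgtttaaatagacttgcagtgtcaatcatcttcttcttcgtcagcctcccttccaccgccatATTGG
Lockd: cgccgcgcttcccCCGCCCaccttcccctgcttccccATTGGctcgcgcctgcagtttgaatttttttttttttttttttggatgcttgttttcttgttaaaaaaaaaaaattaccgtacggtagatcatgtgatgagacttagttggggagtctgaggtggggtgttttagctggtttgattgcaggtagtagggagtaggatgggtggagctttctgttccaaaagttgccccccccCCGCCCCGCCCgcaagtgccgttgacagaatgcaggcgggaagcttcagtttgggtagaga

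The Cdkn1b window held 3 CCAAT matches and 1 GGGCGG match, and the Lockd window 1 CCAAT match and 3 GGGCGG matches, of which the last 2 share a base. Among 32851 RefSeq windows of this length, CCAAT was found in 37.4% and GGGCGG in 35.7%. Neither window held, on either strand, the GATA motif in any of its forms AGATAA (or ending in G, AGATAG) and TGATAA (or ending in G, TGATAG), at least 1 of which was in 29.8% of windows. The FoxO motif GTAAACA (3.65% of windows), the E2F motif TTCGCGC (1.59%) and the E box CACGTG (7.15%) were not found there either. The windows also differed in base composition, with 62% G and C at Cdkn1b and 50.7% at Lockd. These matches describe the letters only. RefSeq windows were found for 8 of the 9 named genes, Cops5 being the other.

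The 7 arrays correlated at 0.993 to 0.996 over the 23521 tested probesets. A principal component analysis set control replicate 2 apart from the rest on its leading axis (29.9% of the variance). The 6 erythroid markers Gfi1b, Klf1, Epor, Tal1, Car2 and Add2 all averaged above the median level of all genes, as did the progenitor markers Gata2, Kit and Myb. Of 4 myeloid markers and the measured lymphoid marker Cd3e, none did. Of the 3 mast cell markers, only the protease gene Cpa3 did, at 9.53 on control replicate 2 and between 9.88 and 11.97 on the other arrays. The other mast cell markers, Mcpt8 and Fcer1a, averaged 4.57 and 3.12, below that median. The summed linear level of the 3 mast cell markers mostly reflects Cpa3. It ranged over 770 to 4050 among control arrays and over 977 to 2883 among deletion arrays. Its part in the results below was not tested. Of the megakaryocyte markers Pf4, Gp9 and Itga2b, 2 of 3 averaged above that median. None of these markers passed the test between the groups. Add2 at -0.44, Gp9 at -0.33 and the myeloid marker Mpo at 0.24 had an unadjusted limma p under 0.05. These were 1 of 6 erythroid, 1 of 3 megakaryocyte and 1 of 4 myeloid markers, where 4.64% of all tested probesets had such a p. The groups did not overlap for Add2, Gp9 and Mpo, where 5.15% of all tested probesets had such groups. Their part in the results below was not tested.

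Lockd, the deleted gene, read 7.89, 8.04 and 7.80 on control replicates 1 to 3 and 5.09, 5.15, 4.17 and 5.15 on deletion replicates 1 to 4. The groups did not overlap, and deletion replicate 3 was the lowest array by a wide gap. Its mean level was 7.91 ± 0.12 (SD, n = 3) with Lockd intact and 4.89 ± 0.48 (SD, n = 4) after deletion. The difference of -3.02 (SE 0.23) passed in limma, at an adjusted p of 0.0162 (Benjamini-Hochberg, all 23521 tested probesets). The labels do not place the probes of this probeset within or outside the deletion, and RMA values carry no detection call, so the level left on the deletion arrays was not read as remaining transcript.

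Cdkn1b read 9.30, 9.17 and 9.06 on control replicates 1 to 3 and 7.89, 8.25, 7.98 and 8.03 on deletion replicates 1 to 4. All deletion arrays lay below all control arrays, and deletion replicate 2 was the highest of them. The mean level was 9.18 ± 0.12 (SD, n = 3) against 8.03 ± 0.15 (SD, n = 4). The difference of -1.14 (SE 0.10), whose 95% interval ran from -1.37 to -0.91, passed in limma with an adjusted p of 0.0251. p27 mRNA was thus 54.7% lower. In bulk RNA, fewer cells with the transcript and less transcript per cell cannot be told apart.

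Of the 8 measured members, Lockd and Cdkn1b passed, both lower, where 0.0085% of all tested probesets passed. The passing pair is also the whole of that background, since 2 probesets passed in all. Both calls were lost in most fits that left out an array. The adjusted p of both genes exceeded 0.05 when any control array, or replicate 1 or 4 of the deletion arrays, was left out, and the call of Cdkn1b was also lost without deletion replicate 3. Over the 7 such fits the difference stayed between -3.10 and -2.78 for Lockd, with adjusted p of 6.17e-05 to 0.106, and between -1.21 and -1.08 for Cdkn1b, with adjusted p of 0.0342 to 0.189. Cdkn1b had an unadjusted limma p under 0.05 in 7 of 7 of these fits and an adjusted p under 0.05 in 1 of 7. Without the array that stood apart, control replicate 2, the values of Lockd and Cdkn1b were -2.95 and -1.15, at adjusted p of 0.0954 and 0.130.

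**Figure D1:**
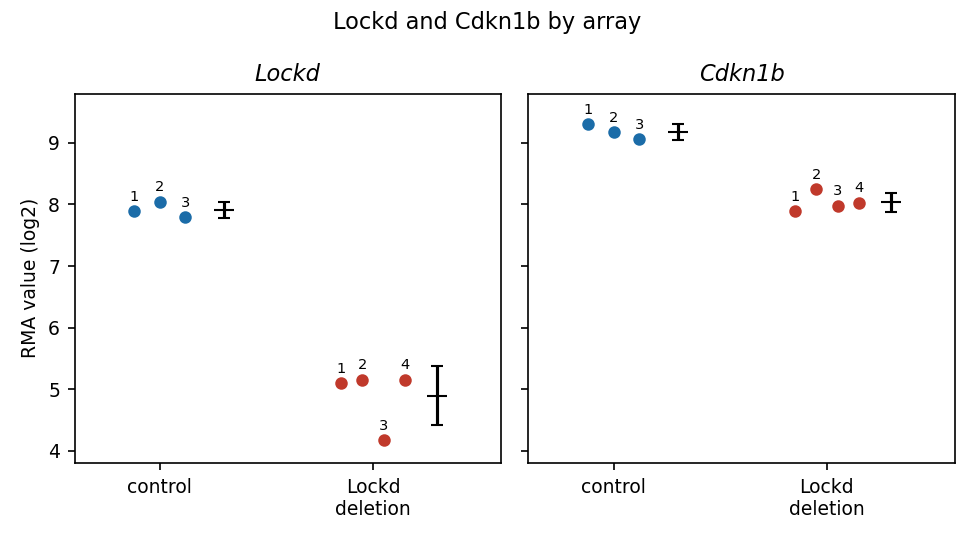
Log2 RMA values of Lockd and Cdkn1b on each array (points, numbered by replicate), with the mean and SD of each group as bars (3 control and 4 deletion arrays). The deletion arrays lie below the control arrays for both genes, with Lockd at 4.17 on deletion replicate 3 and Cdkn1b between 7.89 and 8.25 on the deletion arrays.

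Lockd, the deleted gene, fell further than its neighbour on these arrays. A larger fall of the deleted gene was built into the design, so the comparison below is description only. The per-array log2 difference Lockd minus Cdkn1b was -1.27 ± 0.15 (mean and SD, n = 3) with Lockd intact and -3.14 ± 0.46 (n = 4) after deletion, so the change of Lockd minus that of Cdkn1b was -1.87. The exact two-sided permutation test over the 35 splits of the arrays gave p = 0.0571, the smallest it allows with 3 against 4 arrays, so this design cannot reach 0.05. Within the deletion group the arrays did not follow the same order for both genes. On deletion replicate 3 the deviation from the group mean was -0.72 for Lockd and -0.06 for Cdkn1b. Deletion replicate 1, the lowest for Cdkn1b at 7.89, had Lockd at 5.09, beside 5.15 on replicates 2 and 4.

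The genes of p27 breakdown were compared to see whether the transcripts that act on p27 protein moved along with p27 mRNA. None of the 6 measured turnover members passed in limma, and none had an unadjusted p under 0.05, against 4.64% of all tested probesets. Of these 6 genes 3 were higher and 3 lower in deletion cells, with a median difference of 0.00 and differences between -0.02 and 0.06, where the median over all 22180 genes was 0.01. All 6 had overlapping groups, and 5.15% of tested probesets had groups that did not overlap. Exact permutation tests (two-sided, over array splits) gave p of 0.40 to 0.971 for the 6 genes, and the smallest possible value, 0.0571, for both Lockd and Cdkn1b. The 95% intervals of the 6 genes lay between -0.18 and 0.22, whereas that of Cdkn1b ended at -0.91.

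Skp2, the F-box protein that recognises phosphorylated p27, read 10.80, 10.78 and 10.75 on the control arrays and 10.88, 10.72, 10.74 and 10.67 on the deletion arrays. Deletion replicate 1 was the highest and deletion replicate 4 the lowest of all 7 arrays, on either side of the control arrays. The difference was -0.02 (SE 0.07, 95% interval -0.18 to 0.14), which bounds a change in Skp2 transcript between 11.8% lower and 10.2% higher.

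Cks1b, the small cofactor that Skp2 needs to bind p27, read 8.76, 8.82 and 8.78 on control and 8.72, 8.81, 8.75 and 8.81 on deletion arrays. The groups were interleaved, and the whole spread was about as wide within the deletion group as across both. The difference was -0.02 (SE 0.06, 95% interval -0.16 to 0.12).

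Cul1, the cullin scaffold of the SCF ligase and the other member on chromosome 6, read 10.66, 10.66 and 10.77 on control and 10.78, 10.67, 10.71 and 10.71 on deletion arrays. Control replicate 3 lay with the highest deletion array, and the other control arrays lay just below the lowest. The difference was 0.02 (SE 0.06, 95% interval -0.13 to 0.17).

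Rnf123, the catalytic subunit of the cytoplasmic KPC ligase, read 8.31, 8.54 and 8.37 on control and 8.37, 8.41, 8.42 and 8.40 on deletion arrays. The control arrays enclosed all the deletion arrays, with control replicate 1 lowest and control replicate 2 highest. The difference was -0.0047 (SE 0.07, 95% interval -0.17 to 0.16), and without control replicate 2 it was 0.06.

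Cops5, the JAB1 subunit that carries the catalytic site of the COP9 signalosome, read 11.15, 11.30 and 11.32 on control and 11.29, 11.25, 11.38 and 11.34 on deletion arrays. Control replicate 1 was the lowest array, and the other control arrays lay among the deletion arrays. The difference of 0.06 (SE 0.07, 95% interval -0.10 to 0.22) had the smallest p of the 6 turnover genes at an unadjusted limma p of 0.434.

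Uhmk1, the KIS kinase, has 2 probesets with its symbol alone. The brighter read 9.96, 10.02 and 9.94 on control and 9.91, 9.93, 10.14 and 9.94 on deletion arrays. Deletion replicate 3 was above every other array, and the other deletion arrays lay near or below the lowest control value. The difference was 0.01 (SE 0.08, 95% interval -0.17 to 0.18) and, without deletion replicate 3, -0.05. The dimmer probeset averaged 5.90 ± 0.09 (SD, n = 3) and 5.87 ± 0.11 (SD, n = 4), with a difference of -0.02 (SE 0.08), so neither passed.

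**Figure D2:**
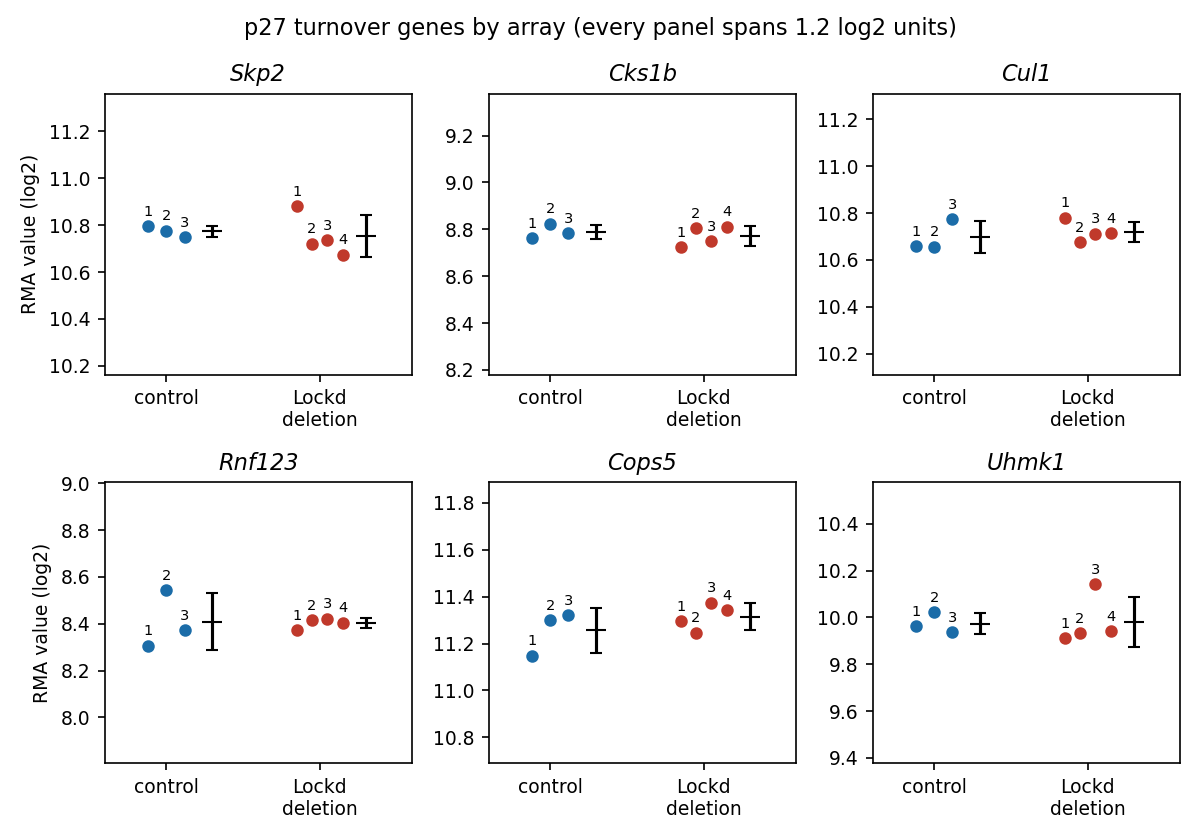
Log2 RMA values of the 6 measured p27 turnover genes on each array (points, numbered by replicate), with group means and SDs as bars (3 control and 4 deletion arrays) and an equal span on every vertical axis. The groups overlap in every panel, and Uhmk1 on deletion replicate 3, at 10.14, lies above the other arrays.

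**Figure D3:**
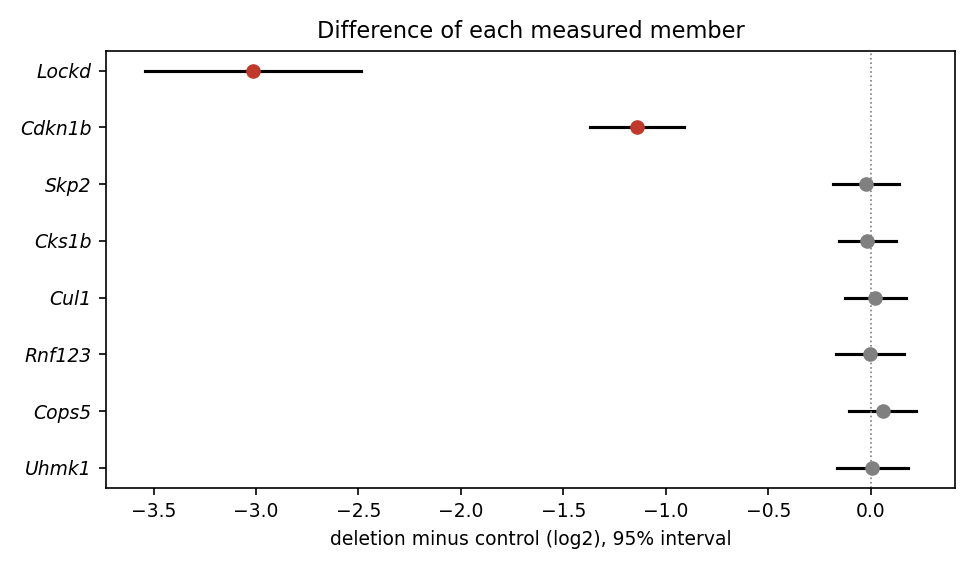
Difference of each measured member, deletion minus control on the log2 scale, with its 95% interval from limma (red, adjusted p under 0.05, grey, not past it). Lockd at -3.02 and Cdkn1b at -1.14 lie apart from 0, and the 6 turnover genes lie between -0.02 and 0.06.

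Across arrays, p27 mRNA was not related to the turnover genes by a pooled correlation, because Cdkn1b falls into separate groups. With 3 and 4 arrays, these groups were too small for a useful correlation within either. The values side by side were as follows. On deletion replicate 1, the lowest for Cdkn1b, Skp2 and Cul1 were at their highest, 10.88 and 10.78. Cks1b and Uhmk1 were at their lowest there, 8.72 and 9.91, and Rnf123, at 8.37, was at its lowest deletion value. On deletion replicate 2, the highest deletion array for Cdkn1b at 8.25, Cul1 and Cops5 were at the lowest deletion values, 10.67 and 11.25. Among the control arrays, replicate 1 had the highest Cdkn1b at 9.30 and the highest Skp2 at 10.80. It also had the lowest Cops5, Rnf123 and Cks1b, at 11.15, 8.31 and 8.76. These orders rest on single arrays and carry no test.

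**Figure D4:**
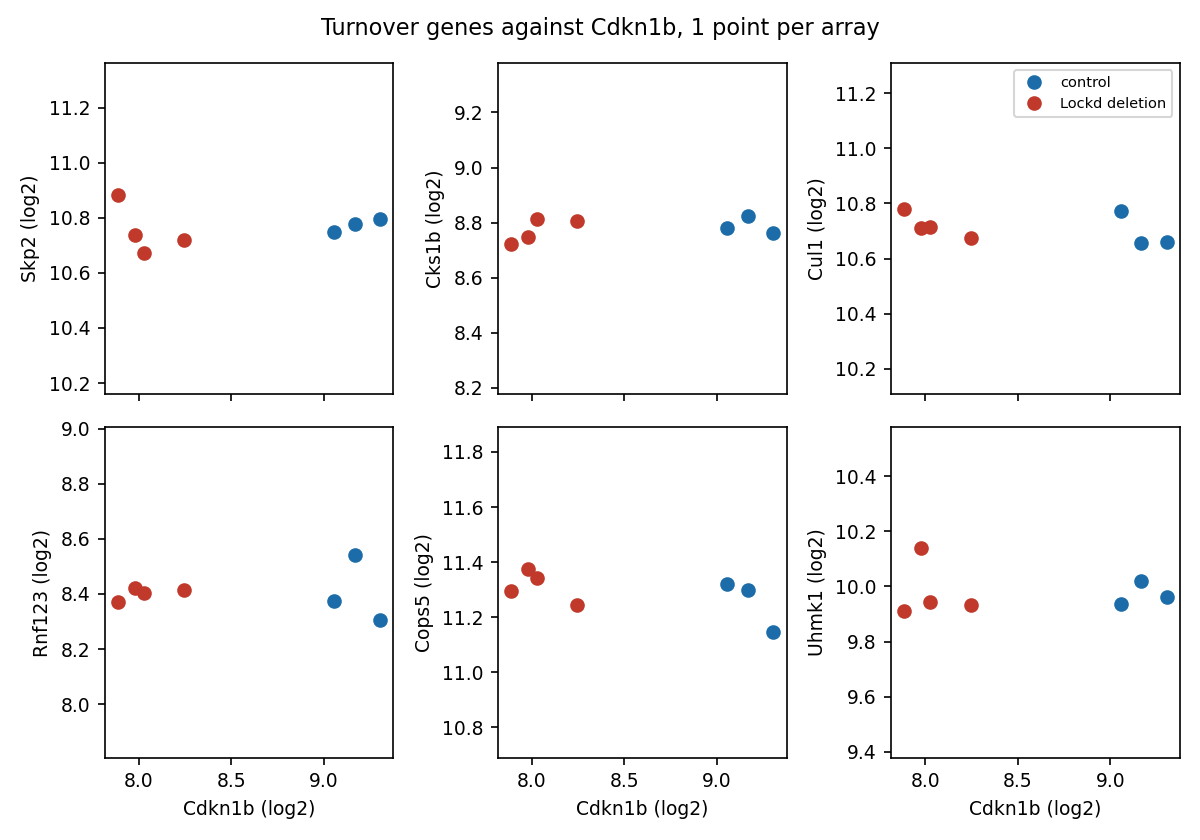
Log2 RMA value of each turnover gene (vertical) against that of Cdkn1b (horizontal), with 1 point per array, blue for the 3 control and red for the 4 deletion arrays. Cdkn1b separates the groups, at 7.89 to 8.25 and 9.06 to 9.30, and the values of the 6 turnover genes overlap between the groups.

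The genes with the pattern most like that of Cdkn1b were ranked by Pearson r over the 7 arrays, predicted genes left out. This measure mostly ranks how cleanly the groups separate, since Cdkn1b itself does. The nearest were Abhd18 (r = 0.974), the ubiquitin chain elongation factor gene Ube4a (0.973), Pla2g10os (0.970), the olfactory receptor gene Olfr1402 (0.970) and, in the fifth place, Lockd (0.968). Their differences were -0.55 for Abhd18, -0.13 for Ube4a, -0.25 for Pla2g10os and -0.15 for Olfr1402, and none of these 4 passed in limma. The genes most like Lockd were AU015836 (r = 0.976), Nudt6 (0.971) and the aminopeptidase gene Npepps (0.970), with differences of -0.12, -0.19 and -0.24, none of which passed. No turnover member was among these genes. Since the groups of every turnover member overlap, that absence adds nothing to the comparison above.

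The 8 lists of genes around p27 were then read from the same fit, 74 measured genes in all. Cdkn1b was the only gene of these lists that passed. Of the other 73, 2 had an unadjusted p under 0.05, which is 2.74% where all tested probesets gave 4.64%, and their median difference was 0.00. The groups did not overlap for 7 of the 73, where 5.15% of all tested probesets had such groups. In the SCF-Skp2 ligase list, 0 of 6 measured genes passed and 3 were higher and 3 lower. Its differences lay between -0.03 and 0.02, with the ligase adaptor Skp1 at 0.02 and the ubiquitin-conjugating enzyme gene Ube2r2 at 0.02. Of 10 other p27 ligase and Skp2 control genes, 0 passed, and the median was -0.01. Usp19, a deubiquitinase gene, had the smallest p of these and differed by -0.06 (SE 0.07), and Ddb1 and Cdc27 differed by -0.02 and -0.01.

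The neddylation and COP9 genes control the cullin itself, by adding the ubiquitin-like protein Nedd8 and by removing it. Of 5 measured neddylation genes 0 passed and 4 were higher, with a median of 0.04. Nae1, a subunit of the Nedd8-activating enzyme, read 9.35, 9.39 and 9.44 on control and 9.45, 9.48, 9.58 and 9.51 on deletion arrays, so its groups did not overlap, but the difference of 0.11 (SE 0.06) did not pass. Nedd8 and the cullin exchange factor gene Cand1 differed by 0.04 and -0.01. All 9 COP9 signalosome genes had values above 0, with a median of 0.04, where 52.2% of all genes did. With quantile normalization again all 9 did, where 51.6% of all genes did. With each array centred on its median 6 of the 9 did, where 42.1% of all genes did. In the main fit 0 of the 9 passed. Cops7a differed by 0.10 (SE 0.06), with control arrays at 8.76 to 8.81 and deletion arrays at 8.85 to 8.92, and Cops6 by 0.04.

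Of 12 measured genes for kinases and export of p27, 0 passed, 8 were lower and 4 higher, with a median of -0.02. Dyrk1b, a kinase known in cultured cells to phosphorylate and stabilise p27, read 8.23, 8.38 and 8.58 on control and 8.07, 8.22, 8.02 and 8.04 on deletion arrays. Its deletion arrays all lay below its control arrays, though deletion replicate 2 came close to control replicate 1. The difference was -0.31 (SE 0.10), with a limma p of 0.0109 before and 0.999 after adjustment. It stayed between -0.40 and -0.22 as each array was left out, with an unadjusted p under 0.05 in 7 of 7 fits and an adjusted p under 0.05 in 0 of 7. The nuclear export receptor gene Xpo1 differed by 0.05 (SE 0.06) and the kinase gene Pim1 by -0.10 (SE 0.09).

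Of 13 measured genes for Cdkn1b transcription and mRNA control, 0 passed, 7 were lower and 6 higher, with a median of -0.01. Foxo3, a forkhead factor known to activate Cdkn1b, read 8.02, 8.15 and 7.95 on control and 7.72, 7.88, 7.89 and 7.91 on deletion arrays. The groups did not overlap but nearly met, and deletion replicate 1 was the lowest. The difference was -0.19 (SE 0.08) with a limma p of 0.0455 before and 0.999 after adjustment. It had an unadjusted p under 0.05 in 1 of the 7 fits that left out an array. The RNA-binding protein genes Ptbp1 and Elavl1 differed by 0.02 and 0.06.

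The microRNAs miR-221 and miR-222 are known repressors of p27 translation. Their mature sequences, from RefSeq on GRCm38.p6, are shown because they share a seed, bases 2 to 8 in capitals. Both genes are on the minus strand of chromosome X, with the mature forms at chrX:19146307-19146329 and chrX:19146901-19146923.
mmu-miR-221-3p: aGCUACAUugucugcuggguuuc
mmu-miR-222-3p: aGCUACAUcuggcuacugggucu

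The probesets of their genes, named here after their values were seen, were dim and cannot be taken for the mature forms. Mir221 read 3.52, 3.46 and 3.48 on control and 3.45, 3.33, 3.43 and 3.35 on deletion arrays, a difference of -0.09 (SE 0.06). Its groups did not overlap, but deletion replicate 1 lay just under the lowest control array. Mir222 read 3.06, 2.94 and 3.22 on control and 3.09, 3.59, 3.20 and 3.34 on deletion arrays, a difference of 0.23 (SE 0.12). The differences had opposite signs, and neither gene passed.

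The binding partners of p27 gave no call. Of 11 measured genes 0 passed, 7 were lower and 4 higher, with a median of 0.00 and differences between -0.03 and 0.09. Cdk1, with the smallest p of them (unadjusted limma p of 0.184), differed by 0.09 (SE 0.06), and its groups did not overlap. Cdk4 and Ccnd2 differed by 0.01 and -0.03. Cdk2, the kinase that p27 inhibits and that marks it for Skp2, read 10.79, 10.76 and 10.70 on control and 10.69, 10.83, 10.78 and 10.70 on deletion arrays, with a difference of 0.00 (SE 0.07). It was named after its values were seen. Of the 8 CDK inhibitor genes, Cdkn1b alone passed. With Cdkn1b counted, 6 were lower and 2 higher, and the median of -0.06 was the furthest from 0 of the 8 lists. Named after their values were seen, Cdkn2d differed by -0.20 (SE 0.09), Cdkn3 by -0.15 (SE 0.10) and Cdkn1c by 0.17 (SE 0.09). The p21 gene Cdkn1a read 11.94, 11.74 and 12.01 on control and 11.65, 11.95, 11.84 and 11.88 on deletion arrays, with a 95% interval of -0.29 to 0.16, and Cdkn2c differed by 0.00.

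**Figure D5:**
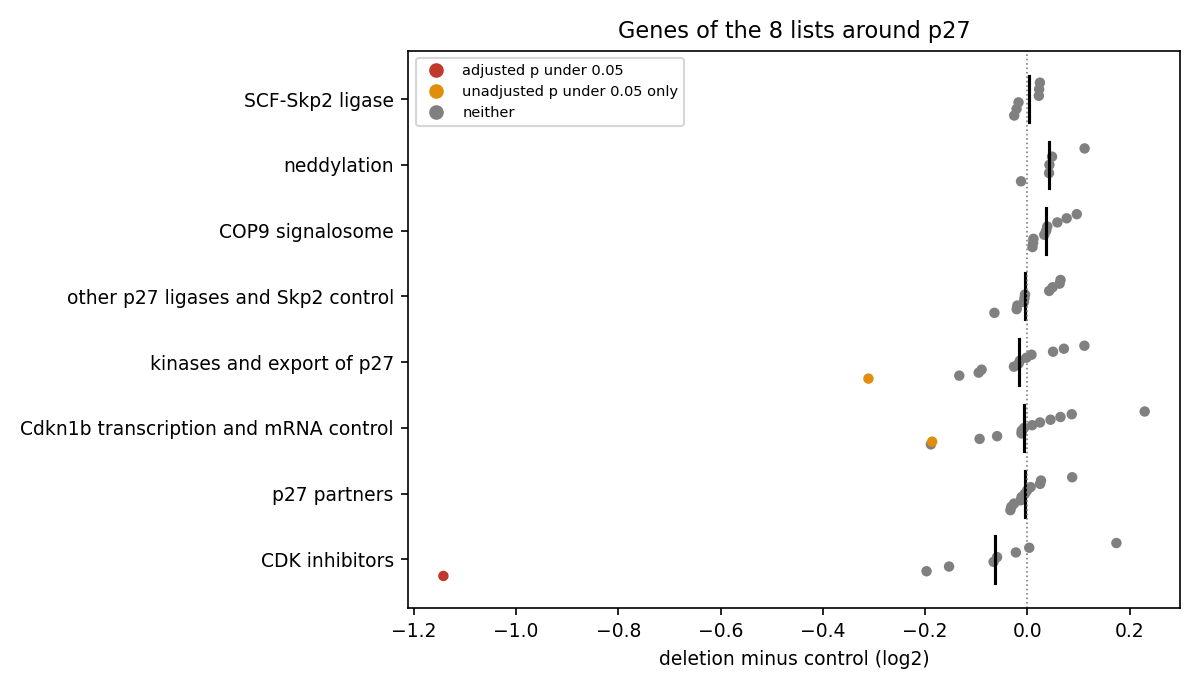
Difference of each measured gene of the 8 lists around p27, deletion minus control on the log2 scale (points), with the median of each list as a black line. Cdkn1b, at -1.14, is the only gene with an adjusted p under 0.05 (red), and Dyrk1b at -0.31 and Foxo3 at -0.19 had an unadjusted p under 0.05 only (orange).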

How the data were processed

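RNA of 3 control and 4 deletion samples was measured on 1 array each. Per the submitters' processing notes and the series' design text, the authors made the deposited log2 values with RMA in Affymetrix Expression Console. Their range gave the log2 scale. A software version or genome build for the probesets was not given in the labels. Of 41345 probesets, 23521 had exactly 1 symbol, 1814 several and 16010 were not listed.

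Groups and replicate numbers came from the titles, and the sample descriptions number the deletion arrays differently. Nothing says that replicates were separate cultures, so p-values measure only the spread between these samples. No pair of arrays was identical, and the number of arrays limits the precision. No scan or slide labels were used.

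All tested probesets were fitted in R 4.3.3 with limma 3.58.1 (lmFit, eBayes, no covariate, two-sided, Benjamini-Hochberg, threshold 0.05), tested on simulated data. The change of Lockd minus that of Cdkn1b had an exact permutation test. Motifs were searched as exact letters in Python 3.11.15. Alternatives left out each array, tested all probesets, filtered dim probesets, changed the variance model, normalization or array weights, blocked on replicate number or averaged the probesets of a gene. Members and lists were chosen with earlier results of these data known. The genes named were the members and, from each list, those at an unadjusted p under 0.05 or otherwise the smallest p, with up to 2 of the highest level.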

Additional observations from a re-analysis of the deposited data

Results flagged for a closer look

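With the 8 measured members examined in the 4 deletion arrays, 2 values lay far from the other arrays of their group, and both were on deletion replicate 3. Chance flags about 1 in 20 groups. Lockd read 4.17 there against 5.09 to 5.15 on the other deletion arrays. Uhmk1 read 10.14 there against 9.91 to 9.94. Without that array Lockd differed by -2.78 and Uhmk1 by -0.05, and Uhmk1 did not pass in limma with or without it.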

How the results depend on the processing

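Both falls kept their direction under all 18 alternatives, from -3.10 to -2.78 in the case of Lockd and from -1.21 to -1.05 in that of Cdkn1b. Lockd stayed past the threshold in 10 and Cdkn1b in 9. With all probesets tested, limma gave adjusted p of 0.0991 for Lockd (-3.02) and 0.141 for Cdkn1b (-1.14), and 0 probesets passed. With the replicate number of the titles as a block, where deletion replicate 4 has no partner and adds nothing to the difference, the values were -3.10 (adjusted p 0.109) and -1.14 (adjusted p 0.680), and 0 passed. Arrays that share a title number did not deviate together, at correlations of 0.02, 0.06 and -0.10. The sample descriptions number the deletion arrays differently and pair only control replicate 2 with deletion replicate 1 and control replicate 3 with deletion replicate 2, at correlations of -0.17 and -0.10. With those numbers as a block, an alternative chosen after seeing the data in which the unpaired arrays add nothing to the difference, the values were -2.80 (adjusted p 0.0771) and -1.05 (adjusted p 1), and 0 passed. Neither numbering was taken to pair the samples. Leaving out each array gave 0 to 2 passing probesets and -1.21 to -1.08 for Cdkn1b. The change of Lockd minus that of Cdkn1b was then -1.99 to -1.65, at exact permutation p of 0.10 to 0.133. Each of these p-values was the smallest that the remaining arrays allow, so they do not show a weaker difference.

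The 6 turnover genes never passed, and the sign turned in 14 of 108 values, all near 0. Leaving out each array gave -0.055 to 0.063 for Rnf123, -0.045 to 0.032 for Uhmk1 and -0.064 to 0.0053 for Skp2. Rnf123 was at 0.0075 with quantile normalization again and 0.034 with array weights. Uhmk1 was at -0.016 with median centring and -0.0081 with its probesets averaged, Skp2 at 0.0053 with the block on title numbers and Cul1 at -0.00058 with median centring. With the block on description numbers Skp2 was at 0.038, Uhmk1 at -0.057 and Cops5 at -0.040. The cause was not tested. Without control replicate 2, Cdkn1c at 0.26 and Cdkn2d at -0.27 had an unadjusted limma p under 0.05. So did Cdkn2d at -0.25 without deletion replicate 2 and Mir222 at 0.30 without deletion replicate 1. Dnd1, of the mRNA control list, did at -0.27 without deletion replicate 4. None of these passed after adjustment. Low levels may hide a fall, since background is not measured.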
